A study of Mus musculus with 18 samples.

Results

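The regions described here are promoter H3K27ac regions of mouse erythroblasts (ERY), the nucleated precursors of red cells, at which no peak was listed in immature megakaryocytes (iMK), precursors of platelet-forming cells. Peaks from the 4 H3K27ac lists that shared at least 1 bp were merged. A merged region was kept when it was under 10 kb wide, lay within 1 kb of an annotated transcription start site (TSS) of a protein-coding gene, and was overlapped by both ERY lists and neither iMK list. The rule selected 554 of 42199 merged regions (1.31%), or 5.31% of the 10434 promoter regions under 10 kb. These members carried 535 gene symbols, 2.45% of the coding genes in the annotation. Since the H3K27ac lists chose the members, their H3K27ac values are given as a description without a test.

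H3K27ac is an acetylation of histone H3 found at active promoters and enhancers. H3K4me3, a methylation of the same histone, is found mainly at active promoters, and many mammalian promoters lie in CpG islands. Erythroblasts produce large amounts of globin and heme and build a specialised membrane skeleton, and many of their genes are bound by GATA1, a factor that recognises GATA words, often beside TAL1 at an E-box, and by KLF1, which recognises CACC words. A gene can also start from several promoters, and an internal start can lie within an enhancer of the same gene.

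The study mapped both marks by ChIP-seq in bone marrow cells of adult male C57BL6 mice, with 2 libraries of each cell type for each mark, as part of a survey of regulatory elements in blood cells. ERY were sorted as Ter119+ CD44+ cells of low forward scatter, and iMK as CD41+ CD61+ Ter119- Sca1- cKit- cells. Both sorts also required cells to be CD4-, CD8-, IL7Ra-, CD11b-, Ly6g- and CD45R-, and no group carried a treatment or a genetic change. The labels number no replicates, so ERY 1, ERY 2, iMK 1 and iMK 2 follow the order of deposit, and equal numbers do not link an H3K27ac to an H3K4me3 library.

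Each H3K27ac list held 21768 to 25750 peaks, which covered 42.9 to 77.0 Mb. The H3K4me3 lists were less even, with 8841 and 6275 peaks in ERY and 7578 and 13222 in iMK, so that iMK 2 covered 33.8 Mb and ERY 2 covered 9.02 Mb. The lists hold no read depth, so depth is unknown. No peak listed does not show that a mark was absent. Of 11 erythroblast markers, 7 had an ERY-only H3K27ac region of any width at a start (among them Hbb-bs, Alas2, Slc4a1, Epb42 and Gata1), 4 had a region shared by all libraries (Hba-a1, Hba-a2, Klf1 and Cd44), and none had an iMK-only region. The libraries labelled iMK had iMK-only regions at 18 of 24 myeloid genes and at 8 of 26 megakaryocyte and platelet genes. Of these 26 genes, 11 had no region in any library. Over the annotation, iMK-only promoter regions under 10 kb carried 2043 of 21829 coding gene symbols. The libraries labelled iMK listed no H3K27ac peak at Itga2b, which encodes the CD41 used in their sort, or at Gp9, Gp1ba, Vwf and Tubb1. These 5 genes are members. Hence "ERY-only" here is relative to the libraries labelled iMK, and the share of other cells in them was not tested.

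Promoters of 6 members with known roles in red cells or platelets are shown in order of the mean fold of their H3K27ac peaks. Each runs 5′ to 3′ on the gene's strand from 250 bases before to 50 bases after the TSS nearest the region's centre, and was read from the RefSeq copy of GRCm38. Capitals mark GATA words, which are GATA with A or T before it and A or G after it, and the CACC word CCNCNCCC, each on either strand. The windows were chrX:150547209-150547508 (+ strand) for Alas2, chr7:103827879-103828178 (− strand) for Hbb-bs, chr4:46038959-46039258 (+) for Tmod1, chr11:58640215-58640514 (+) for Trim58, chr2:84840375-84840674 (+) for Slc43a1 and chr6:87777822-87778121 (+) for Gp9.
Alas2: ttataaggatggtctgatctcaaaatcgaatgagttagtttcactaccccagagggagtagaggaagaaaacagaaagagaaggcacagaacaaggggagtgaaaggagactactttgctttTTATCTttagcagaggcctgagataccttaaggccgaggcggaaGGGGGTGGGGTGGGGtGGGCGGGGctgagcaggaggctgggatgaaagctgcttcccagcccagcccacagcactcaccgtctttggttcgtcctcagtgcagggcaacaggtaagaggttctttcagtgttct
Hbb-bs: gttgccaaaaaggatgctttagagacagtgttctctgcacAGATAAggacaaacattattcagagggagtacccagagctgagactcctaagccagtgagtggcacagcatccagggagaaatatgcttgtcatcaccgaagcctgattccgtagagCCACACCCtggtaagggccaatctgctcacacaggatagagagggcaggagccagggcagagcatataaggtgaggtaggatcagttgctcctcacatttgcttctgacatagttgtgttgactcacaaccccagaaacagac
Tmod1: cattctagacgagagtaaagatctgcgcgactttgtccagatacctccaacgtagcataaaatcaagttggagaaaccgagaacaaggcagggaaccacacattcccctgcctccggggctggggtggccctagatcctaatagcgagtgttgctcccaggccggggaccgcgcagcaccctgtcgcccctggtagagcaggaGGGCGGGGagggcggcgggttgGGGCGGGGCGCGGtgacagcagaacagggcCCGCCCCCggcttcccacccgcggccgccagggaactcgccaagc
Trim58: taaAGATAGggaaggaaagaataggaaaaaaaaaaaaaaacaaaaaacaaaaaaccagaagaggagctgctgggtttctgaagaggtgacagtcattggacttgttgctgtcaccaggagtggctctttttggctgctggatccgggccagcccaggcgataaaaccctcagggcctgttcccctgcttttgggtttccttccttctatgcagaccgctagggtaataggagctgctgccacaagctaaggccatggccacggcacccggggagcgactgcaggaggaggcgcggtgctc
Slc43a1: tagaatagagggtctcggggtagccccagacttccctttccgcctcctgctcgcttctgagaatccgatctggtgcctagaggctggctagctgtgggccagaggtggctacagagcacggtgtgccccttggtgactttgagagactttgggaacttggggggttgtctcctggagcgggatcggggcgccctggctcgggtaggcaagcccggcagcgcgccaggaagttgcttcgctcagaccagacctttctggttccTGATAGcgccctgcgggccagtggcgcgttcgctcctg
Gp9: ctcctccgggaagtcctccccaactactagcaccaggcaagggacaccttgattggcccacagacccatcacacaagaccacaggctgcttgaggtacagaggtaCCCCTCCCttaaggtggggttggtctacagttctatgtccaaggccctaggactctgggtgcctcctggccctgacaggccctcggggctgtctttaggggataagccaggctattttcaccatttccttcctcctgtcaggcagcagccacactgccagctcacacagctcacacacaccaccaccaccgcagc

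Alas2 and Hbb-bs each held 1 GATA word, with 4 and 1 CACC words, respectively. Tmod1 held 4 CACC words and no GATA word. Trim58 and Slc43a1 held 1 GATA word each and no CACC word, whereas Gp9 held 1 CACC word and no GATA word. A matching word is a description and not a bound site.

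The members were 400 to 9800 bp wide (median 3200 bp). The deposited fold, the ratio of ChIP signal to control in a peak, had a median over members of 3.14 in ERY 1 (range 1.52 to 23.2) and of 2.56 in ERY 2 (range 1.3 to 17.0). Shared promoter regions under 10 kb had higher medians in the same libraries, 4.90 and 3.65. The medians over all H3K27ac peaks of these lists were 3.06 and 2.77, so 52.7% of members in ERY 1 and 43.0% in ERY 2 exceeded the median peak of their own list. The fold was higher in ERY 1 at 404 members and in ERY 2 at 150. Peaks covered a median of 93.8% of a member in ERY 1 and 81.7% in ERY 2. The nearest peak in a library labelled iMK lay a median of 14400 bp away, within 5 kb for 148 members and over 50 kb for 104.

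The width limit left out 140 wider ERY-only promoter regions. The 5 widest members, at Chst10, Cr1l, Gfap, Diaph3 and Tmem231, were all 9800 bp wide, with folds of 2.66 to 6.54 in ERY 1 and 2.78 to 15.8 in ERY 2. Just outside, the regions at Kcnk7, N4bp2l1, Slc41a3, Pld3 and Pln were 10000 to 10200 bp wide, with folds of 3.09 to 4.54 and 1.79 to 6.34. At the distance limit, the members at Zbtb8os, Ankrd36, Slc25a36, Klhl35 and Galnt16 lay 989 to 974 bp from a TSS, with folds of 1.92 to 4.27 and 1.95 to 3.71. The 5 ERY-only regions just beyond 1 kb lay 1018 to 1031 bp from a TSS, with folds of 1.5 to 4.85 and 1.57 to 3.25. Values on either side of both limits overlapped.

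The 3 members at listed heme and globin genes differed widely in fold. Alas2, the erythroid form of the first enzyme of heme synthesis, had a member of 9000 bp (chrX:150546201-150555200) with folds of 14.4 in ERY 1 and 15.8 in ERY 2. Hbb-bs, an adult beta-globin gene, had a member of 8200 bp (chr7:103822401-103830600) with folds of 10.3 and 17.0. Hbb-bs is nearly identical to its neighbour Hbb-bt, whose start lay in a wider ERY-only region, so reads of the pair may not be separable. Over its length the Alas2 member held 29 GATA words and the Hbb-bs member 26. All members together held 1.94 per kb, and the members of 9800 bp at Cr1l and Gfap held 46 and 15. The third gene of this list, Fam210b, which supports heme synthesis in mitochondria, had folds of 2.41 and 2.5 in a member of 1000 bp. Its TSS lay 365 bp outside the member, and a peak in a library labelled iMK lay 400 bp from the member. Fam210b also had a shared region within 1 kb of a TSS, so its H3K27ac was not confined to ERY. Of the 22 listed heme and globin genes in the annotation, 3 had a member, 3 a wide ERY-only region and 17 a shared region. The list leaves out the globin genes Hbb-bh1 and Hbb-bh2, where another member lay under 20 kb from that at Hbb-bs.

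**Figure D1:**
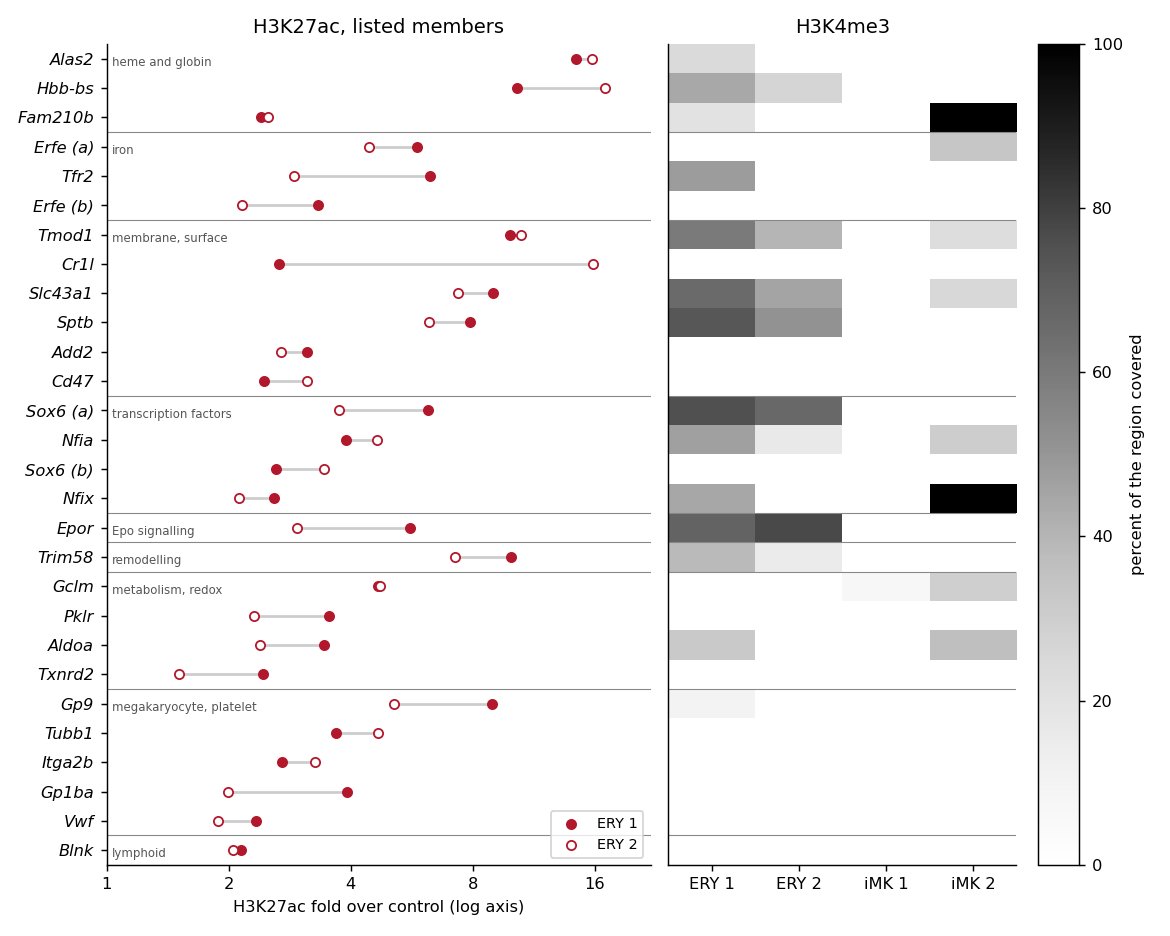
Members at listed genes, grouped by role (a and b are separate members of 1 gene): left, the H3K27ac fold over control (log axis) in ERY 1 (filled points) and ERY 2 (open points), joined by a line, and right, the percent of each member covered by H3K4me3 peaks in the 4 libraries (white, 0; black, 100). Alas2, with folds of 14.4 and 15.8, and Hbb-bs, with 10.3 and 17.0, lead the left panel. In the right panel the 5 members at megakaryocyte and platelet genes are white in both libraries labelled iMK, as are most of the other members shown.

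The folds of X-linked members need a separate scale. Of the 10 members with the highest mean fold, 4 lay on the X chromosome (Alas2, Bcorl1, Usp51 and Pir), compared with 3.07% of all members. The median fold of the 17 X-linked members was 6.94 in ERY 1 and 5.18 in ERY 2, and that of the other 537 members was 3.10 and 2.5. The same held for all H3K27ac peaks of the lists, with X-linked medians of 7.26 and 6.12 in ERY and 15.0 and 13.0 in iMK, against 3.04, 2.74, 5.73 and 5.58 elsewhere. The part of the control libraries in this difference was not tested. Bcorl1, an X-linked corepressor gene, also differed between replicates, with folds of 23.2 and 6.56. Outside the X chromosome, the leading members after Hbb-bs were Tmod1, Tspan8, Cr1l, Samd11 and the pair Gm9945/Sowaha.

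Membrane and surface genes gave 6 members among 42 listed genes, and another 16 of the genes had a wide ERY-only region, among them Ank1 and Slc4a1. Tmod1, which caps actin filaments of the membrane skeleton, had folds of 9.90 in ERY 1 and 10.5 in ERY 2. Slc43a1, an amino acid transporter gene, had folds of 8.96 and 7.37, and Sptb, the erythroid beta-spectrin gene, 7.89 and 6.23. At Slc43a1 the TSS nearest the region's centre, whose window is printed above, lay 1775 bp from the gene's 5′-most TSS. The other 3 members lay farther from the first TSS of their gene. The member at Add2 lay 23544 bp from the gene's 5′-most TSS, that at Cd47, the marker of self on red cells, 66300 bp away, and that at the complement regulator Cr1l 13945 bp away. The folds of Add2 and Cd47 were 2.45 to 3.13, while those of Cr1l differed widely, 2.66 in ERY 1 and 15.8 in ERY 2.

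Members were also found at genes of regulators and of iron. Epor, the erythropoietin receptor gene, had folds of 5.60 and 2.95 over a member of 4400 bp (chr9:21960201-21964600), and was the 1 member among 15 genes of erythropoietin signalling and survival. Of 27 erythroid transcription factor genes, 3 had a member and 23 a shared region. Sox6, which takes part in globin silencing, had members at 2 internal starts, with folds of 6.20 and 3.74 at one and 2.61 and 3.43 at the other. The member at Nfia, with folds of 3.88 and 4.64, also covers a start of E130114P18Rik on the opposite strand, and Nfix had folds of 2.58 and 2.12. Nfia also had a shared region near a TSS. Among 15 iron genes, Tfr2, which senses transferrin iron, had folds of 6.28 and 2.90, and Erfe, the erythroid hormone that lowers hepcidin, had 2 members with folds of 5.83 and 4.44 and of 3.33 and 2.15.

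Among 24 genes of remodelling, autophagy and ubiquitin in the annotation, Trim58, a ubiquitin ligase gene of late erythroblasts, was the 1 gene with a member, with folds of 9.96 and 7.24. Red cell metabolism and redox genes gave 4 members of 25. Gclm, of glutathione synthesis, had folds of 4.66 and 4.72 and Pklr, the red cell pyruvate kinase gene, 3.54 and 2.31. Aldoa, a glycolytic enzyme gene, had folds of 3.44 and 2.38, and Txnrd2, of mitochondrial redox control, 2.43 and 1.51. Gclm, Aldoa and Txnrd2 also had a shared region near a TSS, so their H3K27ac was not confined to ERY. At Gclm the TSS lay 357 bp outside the member, and a peak in a library labelled iMK lay 400 bp from the member. None of 19 cell cycle genes had a member, and 16 of them had a shared region of any width. Over the annotation, 2.45% of coding genes had a member, and shared promoter regions under 10 kb carried 7062 of 21829 coding gene symbols. In lists this short, none or 1 gene with a member is not read as a result about the list.

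Platelet genes gave 5 members of 26. Gp9 and Gp1ba encode subunits of the platelet receptor for von Willebrand factor, and their folds were 8.93 and 5.12 and 3.91 and 1.99. Tubb1, the platelet beta-tubulin gene, had folds of 3.68 and 4.68, and Itga2b, the gene for CD41, 2.71 and 3.26. Vwf, whose member of 7000 bp lay within 1 kb of its first start and covered another 6174 bp downstream, had folds of 2.33 and 1.88. No H3K4me3 peak of either library labelled iMK touched these 5 members, and 1 of them, at Gp9, was touched in ERY 1. The same held for most members, as only 2.89% of all were touched in iMK 1 and 20.4% in iMK 2. No myeloid or stromal gene listed had a member, and Blnk, a B-cell adaptor gene, was the 1 lymphoid gene of 19 with one, at folds of 2.15 and 2.05.

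Many members lay away from the start of their gene. A start was counted as internal when the TSS nearest the region's centre was over 1 kb from the gene's 5′-most TSS, and 278 of the 554 members (50.2%) were at one, compared with 10.4% of 6121 shared and 22.9% of 2081 iMK-only promoter regions. In some regions the first TSS was also within 1 kb, and leaving these out 49.1% of members, 6.83% of shared and 19.9% of iMK-only regions lay out of reach of it. The TSS lay inside the region for 75.3% of members, 99.4% of shared and 92.0% of iMK-only regions. A start that the annotation marks as principal was within reach of 56.3% of members, 97.2% of shared and 85.5% of iMK-only regions. These shares depend on how many transcripts are annotated. Only 376 members (67.9%) had a TSS of the smaller GENCODE basic set within 1 kb, against 98.9% of shared and 92.1% of iMK-only regions. With that set 26.3% of the remaining members were at an internal start, compared with 6.03% and 14.3%.

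Many members belonged to genes with H3K27ac elsewhere in all libraries. Of the 554 members, 356 (64.3%) were at genes with another annotated TSS over 1 kb outside the region, more than the 35.2% of shared and 45.6% of iMK-only regions. At 190 members, 34.3% of all and 53.4% of those 356, another TSS had an H3K27ac peak in all 4 libraries. The corresponding shares of regions with another TSS were 15.9% for shared and 15.3% for iMK-only regions. With basic transcripts another TSS was marked in all 4 libraries at 13.6% of the 376 members, 3.22% of shared and 3.86% of iMK-only regions, or at 35.4%, 20.4% and 13.8% of those with another TSS. At a further 21 members the other TSS was marked in iMK only, at 35 in ERY only, at 27 in other combinations, and at 83 in no library. For 198 members (35.7%) the gene had no other TSS over 1 kb outside the region. A TSS closer to the region was not counted, so Fam210b falls here although it also had a shared region. The 190 members therefore do not include every gene with H3K27ac in both cell types.

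**Figure D2:**
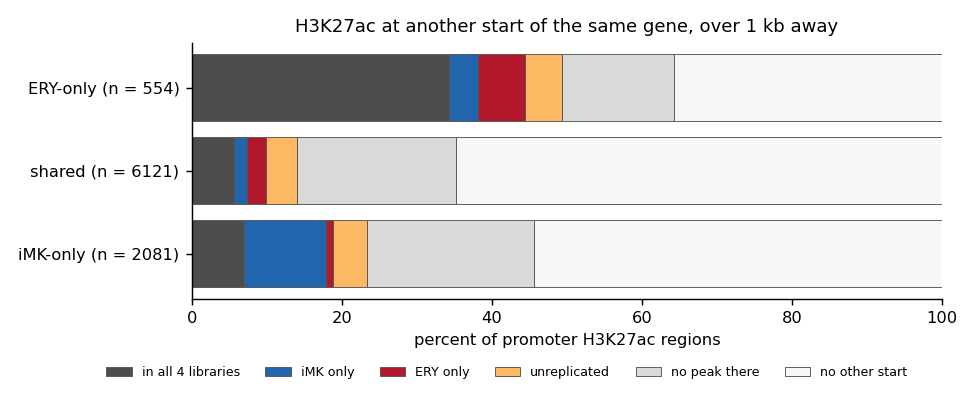
State of the other annotated starts of the same gene, over 1 kb outside the region, for ERY-only, shared and iMK-only promoter H3K27ac regions. Each bar adds to 100 percent. A gene with several such starts is counted at the first state that applies, from left to right. The dark segment, another start marked in all 4 libraries, takes up 34.3% of ERY-only regions, 5.60% of shared and 6.97% of iMK-only regions, and with basic transcripts the share of ERY-only regions is 13.6%.

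Diaph3, a formin gene, gave the farthest of the named cases. Its member of 9800 bp (chr14:86739401-86749200) lay 392380 bp downstream of the 5′-most TSS, and had folds of 5.26 and 6.28, while another start of the gene was marked in all 4 libraries. Cd47, Cr1l and Txnrd2 were of the same kind. Several members could fall within 1 gene, as 34 genes had 2 or more. The genes with 3 members each were Agpat3, Fubp3, Gramd1c, Rgs12 and Slc45a4, chosen for naming after their values were seen. At Rgs12, a regulator of G protein signalling, the 3 members lay 40104 to 73311 bp from the 5′-most TSS with folds of 2.23 to 2.5 in ERY 1 and 1.79 to 1.90 in ERY 2. Members of 1 gene are not independent, and 90 members fell in 42 runs of regions under 20 kb apart.

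The 190 members with another start marked in all libraries had lower median folds, 2.65 in ERY 1 and 2.26 in ERY 2, than the other 364, with 3.48 and 2.79. Their median widths were 3400 and 3200 bp.

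H3K4me3, which took no part in the selection, was listed at a minority of the members. Peaks touched 151 members (27.3%) in ERY 1 and 73 (13.2%) in ERY 2, against 16 (2.89%) in iMK 1 and 113 (20.4%) in iMK 2. The value of iMK 2 lay between those of the ERY libraries, so the groups overlapped. The share was 20.2% ± 9.96 in ERY and 11.6% ± 12.4 in iMK (SD, n = 2 libraries each), a difference of 8.57 percentage points with an exact two-sided permutation p of 0.667, where no arrangement of 2 against 2 libraries can give less than 0.333. Shared promoter regions were touched far more often in the same libraries, at 94.7% and 71.6% in ERY and 78.4% and 98.9% in iMK. For iMK-only regions the shares were 10.8% and 1.92% in ERY and 44.6% and 84.0% in iMK.

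**Figure D3:**
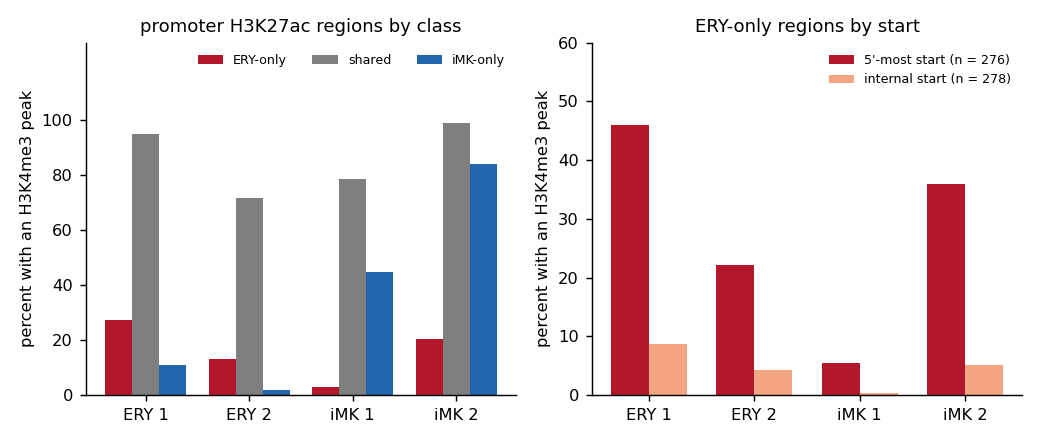
Percent of promoter H3K27ac regions touched by an H3K4me3 peak in each of the 4 H3K4me3 libraries: left, by class (ERY-only, shared, iMK-only), with ERY-only regions at 27.3%, 13.2%, 2.89% and 20.4% from ERY 1 to iMK 2. Right, ERY-only regions at the 5′-most start of their gene (dark, 46.0% in ERY 1) and at internal starts (light, 8.63% in ERY 1).

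No H3K4me3 peak was listed in any library at 369 members (66.6%). Of the other 185, 71 were covered in ERY and not in iMK, 34 in iMK and not in ERY, and 80 in both cell types. Of those 34, 33 were covered in iMK 2 alone, the longest list. Both ERY libraries exceeded both libraries labelled iMK at 51 members (9.21%), while over all 42199 merged H3K27ac regions 0.905% did so. The reverse order held at 3 members (0.542%), against 5.26% of all merged regions. Among shared promoter regions the 2 orders held at 1.54% and 15.0%.

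H3K4me3 at members varied with the position of the start. Of 276 members at the 5′-most start, 46.0% were touched in ERY 1, 22.1% in ERY 2, 5.43% in iMK 1 and 35.9% in iMK 2. Of 278 members at internal starts, the shares were 8.63%, 4.32%, 0.360% and 5.04%. They were lowest for the 190 members whose gene had another start marked in all libraries, at 5.26% in ERY 1, 2.63% in ERY 2, 0% in iMK 1 and 4.21% in iMK 2.

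The percent of each region covered by H3K4me3 was compared between ERY and iMK with limma over the 12100 merged H3K27ac regions covered in at least 1 library, with Benjamini-Hochberg adjustment. At an adjusted p of 0.05, limma called 0 of the 185 tested members higher and 0 lower, and 0.0% of all tested regions in either direction. At an unadjusted p under 0.05 there were 9 members higher and 2 lower, and over all regions 14 higher and 802 lower. The median difference, ERY minus iMK, was 9.52 percentage points over tested members and −20.8 over all tested regions. The member median was −6.25 without ERY 1, 0 without iMK 1, 20.8 without ERY 2 and 25 without iMK 2, so its direction rests on single libraries. The median over all regions was 4.84 without iMK 2 and 2.19 after quantile normalization. Because these 185 members passed the filter only through the libraries that covered them, these values describe them and not all members. Leaving out iMK 1 gave 9 of 185 members higher and 35 lower, where 0.397% of all 12078 tested regions were called higher and 37.1% lower. Leaving out iMK 2 gave 5 of 152 members higher and 0 lower, where 1.16% and 12.1% of 9085 regions were called. Quantile normalization gave 6 of 185 members higher and 0 lower, where 0.14% and 0.868% of all 12100 regions were called. The calls at members therefore depended on which library labelled iMK was kept and on the scaling. With 1 iMK library left, a region's own spread comes from the ERY libraries alone, and is 0 where these are equal. Calls at such regions cannot test a difference.

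Samd11, which encodes a SAM domain protein, had the smallest adjusted p. H3K4me3 covered 88.9% of its member in ERY 1 and in ERY 2 and none of it in iMK 1 and iMK 2, a difference of 88.9 percentage points with an SE of 15.8 (limma, adjusted p = 0.257). At Fam110c the values were 81.3% in both ERY libraries and 0% in both iMK libraries (adjusted p = 0.367). With any 1 library left out, the differences stayed at 88.9 and 81.3 percentage points. Without an iMK library, a member's own spread comes from the ERY libraries alone, whose values are equal at both members. Those fits therefore cannot test the differences. Both were called higher after quantile normalization of the 4 libraries (limma, adjusted p = 0.0499 for each). Under the other alternatives that kept all 4 libraries, neither was called, with adjusted p values of 0.110 to 0.421 by limma. At Asns, the asparagine synthetase gene, coverage was 71.4% and 85.7% in ERY, and at Myh10, a non-muscle myosin gene, 88.2% and 70.6% (adjusted p = 0.421 for each). None of these members overlapped an H3K4me3 peak of a library labelled iMK.

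At 5 of the 28 members at listed genes, both ERY libraries had H3K4me3 and neither library labelled iMK did. Over all members this held at 35 (6.32%). H3K4me3 covered 68.2% of the Epor member in ERY 1 and 77.3% in ERY 2, and 0% in both iMK libraries (limma, adjusted p = 0.524). One of the 2 Sox6 members was covered at 75% and 66.7% in ERY and not in iMK (adjusted p = 0.564), whereas the other was covered in no library. Sptb was covered at 72.7% in ERY 1 and 51.5% in ERY 2, and Hbb-bs at 43.9% and 26.8%, with 0% in iMK for both (adjusted p = 0.626 for each). The Alas2 member, despite its high H3K27ac fold, was covered at 24.4% in ERY 1 and 0% in the other 3 libraries. Pklr, Add2, Cd47 and 4 of the 5 platelet genes had no H3K4me3 in any library.

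Some members carried H3K4me3 in the libraries labelled iMK. Tmod1 was covered at 60% and 40% in ERY, 0% in iMK 1 and 22.9% in iMK 2, and Slc43a1 at 65.9%, 45.5%, 0% and 25%. At Fam210b and Nfix, iMK 2 covered the whole member, while ERY 1 covered 20% and 44.4% and the other libraries none. At Rpap1, which encodes a protein associated with RNA polymerase II, coverage was 60% and 0% in ERY and 100% in both iMK libraries (limma, adjusted p = 0.626). Among the 28 members at listed genes, 8 had H3K4me3 in ERY and not in iMK, 6 in both, 2 in iMK alone and 12 in neither. Over all members these shares were 12.8%, 14.4%, 6.14% and 66.6%. The 2 listed members with H3K4me3 in iMK alone were at the erythroid genes Erfe and Gclm. One Erfe member was covered at 33.3% in iMK 2 only, and Gclm at 5.88% in iMK 1 and 29.4% in iMK 2.

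The members lay at starts poor in CpG. In 1 kb around the TSS, the ratio of observed to expected CpG had a median of 0.300 over members, 0.770 over shared regions, 0.599 over iMK-only regions and 0.523 over all coding starts. It was under 0.4 at 358 members (64.6%), compared with 5.91% of shared and 33.8% of iMK-only regions and 42.1% of all coding starts. The median GC content was 51.3% over members and 59.3% over shared regions. Members with another start marked in all libraries had a lower median CpG ratio, 0.247, than the others, 0.377. The 96 members with a ratio of 0.6 or more were touched by H3K4me3 at 77.1% in ERY 1, 46.9% in ERY 2, 13.5% in iMK 1 and 63.5% in iMK 2. The 358 with a ratio under 0.4 were touched at 10.6%, 3.91%, 0.279% and 3.91%. Among the genes named above, Hbb-bs had a ratio of 0.109, Gp9 of 0.124 and Alas2 of 0.136, while Tmod1 had 0.769 and Sptb 0.703.

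**Figure D4:**
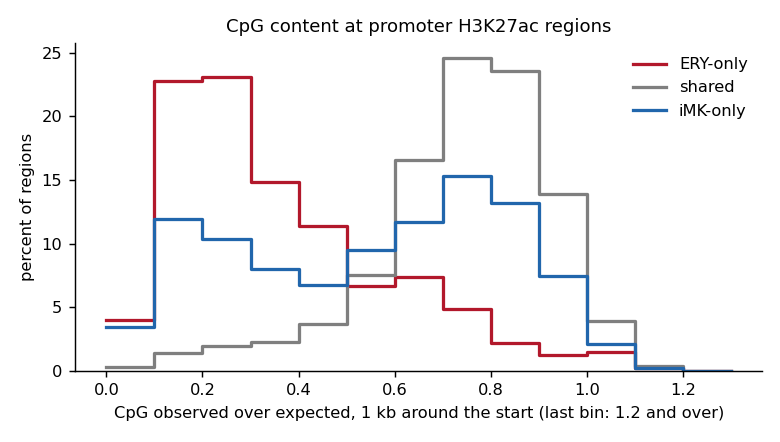
Ratio of observed to expected CpG in 1 kb around the start (x axis, bins of 0.1) against the percent of ERY-only, shared and iMK-only promoter H3K27ac regions in each bin (y axis). ERY-only regions peak between 0.1 and 0.3, with 22.7% and 23.1% in those 2 bins, and shared regions between 0.7 and 0.9, with 24.6% and 23.6%.

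Words read by erythroid factors were counted on both strands in 300-base windows set at the TSS, as for the printed promoters. The TSS lay outside the region for 137 members, so a word counted at a member need not lie inside it. A GATA word was found at 187 members (33.8%), compared with 16.5% of shared and 19.6% of iMK-only regions and 26.1% of all coding starts. The composite of a partial E-box, CTG, followed after 7 or 8 bases by GATA, was found at 38 members (6.86%), against 2.63%, 3.08% and 4.09%. It overlaps the GATA words by its GATA. Epor was among these 38, with 1300017J02Rik, Nudt12 and Il1r1. At Nudt12 the composite lay outside the member. The NF-E2 core TGANTCA was found at 7.40% of members and 3.58% of shared, 7.02% of iMK-only and 6.57% of all starts.

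CG-rich words went the other way. The CACC word CCNCNCCC was found at 47.3% of members, against 67.5% of shared, 66.3% of iMK-only and 54.6% of all starts. The stricter CCACACCC, the form in the printed Hbb-bs promoter, was found at 3.43% of members and 3.61% of all starts. GGGCGG, a word of SP factors that can overlap CCNCNCCC, was found at 29.6% of members and 67.5% of shared regions, and the ETS word CCGGAAGT at 1.08% and 11.4%. CCAAT was found at 33.6% and 37.2%. Words depend on base composition, which differed between the classes, and the part of composition in these shares was not tested. Over the whole regions, GATA words occurred 1.94 times per kb in members, 1.58 in shared and 1.38 in iMK-only regions.

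**Figure D5:**
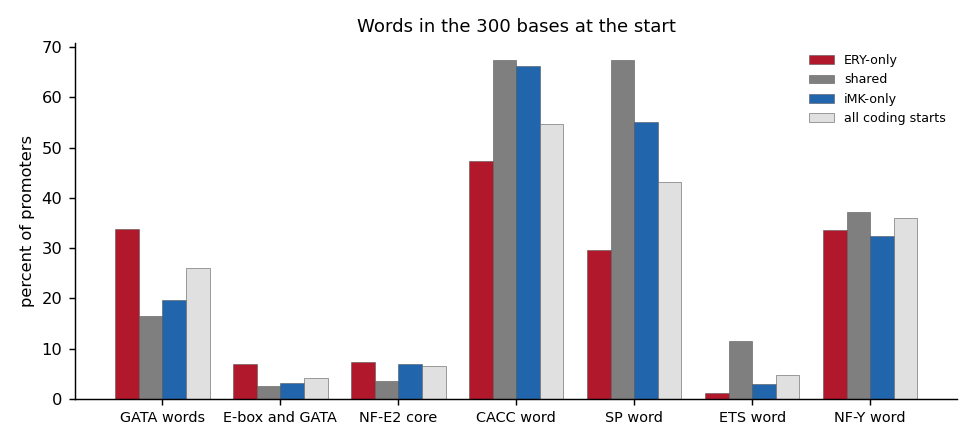
Percent of promoters (y axis) with each word in the 300 bases at the start (x axis), for ERY-only, shared and iMK-only promoter H3K27ac regions and all coding starts. GATA words were found at 33.8% of ERY-only and 16.5% of shared regions, and SP words at 29.6% and 67.5%.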

How the data were processed

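Peak lists of 8 ChIP-seq libraries (H3K27ac and H3K4me3, 2 ERY and 2 iMK libraries each) were used, and the 10 input libraries were not used here. The authors called peaks in each library separately. Bowtie 1.0.0, SICER 1.1 and the mm10 build are listed in the submitters' processing notes, whereas the study's general methods describe a different mapper version and peak caller and a pipeline that kept multiply mapping reads. Peaks were deposited with a fold (the ratio of ChIP to control), a p-value and a q-value from the authors, and all peak edges were multiples of 200 bp. SICER joins neighbouring windows, so 1 peak can span several elements.

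Peaks sharing 1 bp were merged and matched to 54361 distinct starts of protein-coding transcripts in GENCODE vM21 (GRCm38, the assembly of mm10). Sequence came from RefSeq's GRCm38.p6, whose chromosomes held every peak end. Coordinates count from 1. H3K4me3 coverage was compared with limma 3.58.1 (trend, no covariates, 2 against 2 libraries) over merged regions covered in at least 1 library, and tested on simulated data. The methods call replicates biological, from separate groups of mice or separate sorted portions, so p-values measure the spread between libraries. Members and gene lists were chosen with earlier results of these data known. Of 270 listed names, 268 were in the annotation.

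Genes named were those on the lists with a member, those nearest the limits and those with the composite word. Also named were the 10 members highest in fold, in bases covered or in limma rank for higher H3K4me3 in ERY. Alternatives changed the distance, width, threshold, list length, overlap, starts, joining, filter, scale and libraries.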

Additional observations from a re-analysis of the deposited data

How the results depend on the processing

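The number of members, 554, stayed within 1.5 times under 11 of 13 alternatives and was 851 with starts within 2.5 kb. Leaving out 1 H3K27ac library gave 591 to 1023 members, the highest without ERY 2. The share of members at an internal start, 50.2%, was 45.6% within 2.5 kb, 42.7% where a library counted only at 25% of a region, and 26.3% with basic transcripts, and 47.4% to 52.9% without 1 library. The share whose gene had another start marked in all libraries, 34.3%, was 28.3% at the 25% overlap, 13.6% with basic transcripts and 29.4% with peaks within 1 kb joined, and 32.1% to 39.6% without 1 library. Both shares were recomputed under alternatives chosen after seeing the data, and the lower values with basic transcripts come with fewer starts. In the H3K4me3 test, members called higher numbered 0 to 9 and members called lower 0 to 35 when 1 library was left out, and 6 were called higher after quantile normalization. Without iMK 1, 9 were called higher and 35 lower (0.397% and 37.1% of all regions), and without iMK 2, 5 and 0 (1.16% and 12.1%). After quantile normalization 0.14% and 0.868% of all regions were called higher and lower. The cause was not tested. The other alternatives called no member, at 0 to 48 members with an unadjusted p under 0.05 in the higher direction. The 10 named members with the smallest adjusted p were picked among members higher in ERY. All had H3K4me3 in both ERY libraries and in neither library labelled iMK, so leaving out a library could not reverse their direction. In their 130 repeats no direction reversed, and this is not read as support. With all 4 libraries kept, only quantile normalization called any of them, namely Samd11, Fam110c, Myh10 and Asns (limma, adjusted p = 0.0499 for each). The fit with no filter on coverage could not be fitted, because most residual variances were 0. No paired analysis was possible because the labels give no replicate numbers shared between the groups. With 1 library left in a group, that library is assumed to vary like the other group. Where both libraries of that other group are equal, the region shows no spread of its own. Calls at such regions, among them Samd11 and Fam110c without an iMK library, cannot test a difference. The lists hold no depth, and a peak that missed the authors' threshold counts as no peak.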

Other observations

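Beyond the genes on the lists, the members with the most bases covered by ERY H3K27ac were at Tmem231, Diaph3, Rab3il1, Gfap and Chst10, and their peaks covered 8200 to 9400 bp in each ERY library. Rab3il1 had folds of 7.91 in ERY 1 and 6.01 in ERY 2, and H3K4me3 covered 45.7% and 37.0% of its member in ERY, 0% in iMK 1 and 2.17% in iMK 2. Slfn14, a Schlafen family gene, had folds of 6.34 and 6.91 with H3K4me3 coverage of 84.2% and 47.4% in ERY and 0% in both libraries labelled iMK, at a start with a CpG ratio of 0.0796. Tspan8, a tetraspanin gene, had folds of 9.36 and 10.3 and coverage of 56.7% and 53.3% in ERY and 0% in both libraries labelled iMK. The limma adjusted p was 0.626 for Slfn14 and Tspan8. Usp51 on the X chromosome combined folds of 13.9 and 8.50 over 1000 bp with no H3K4me3 peak over the member in any library. Its TSS lay 332 bp outside the member, so these values do not cover the start itself.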
